A study of Bos taurus with 12 samples.

Results

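The genes described here are 56 genes of the cell cycle and DNA replication, picked by name, in the rumen papillae of 4 Holstein dairy cows. A gene was measured where at least 1 probe set of the bovine array named it and no other gene, which held for 45 of the 56 and for 9155 genes in all. Where a gene had several such probe sets, the one with the largest SD over the 12 arrays stood for it. By role, 16 genes belonged to DNA replication, 19 to mitosis and 10 to the regulation of G1, the phase before DNA synthesis. The other 11 members were not analysed here: MCM2, GINS1 and GINS2 of DNA replication, MKI67, CDC25B, CDKN3, TOP2A, KIF11 and PRC1 of mitosis, and CDK6 and CDKN1B of G1.

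Each cow was sampled 3 times from the ventral sac of the rumen. The week 0 group was on a high forage diet, the control, and the week 1 and week 3 groups were the same cows after 1 and 3 weeks of a grain challenge, which gave 4 arrays a week. Ages were not in the labels. No cow stayed on forage throughout among these samples, so that diet and the passing of time cannot be told apart. Papillae hold several cell types, and in such bulk samples a gene carried by fewer cells cannot be told apart from less of its RNA per cell.

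The rumen is lined by a stratified epithelium that is renewed by divisions in its basal layer, and papillae are known to grow when the diet becomes richer in grain. A dividing cell passes from G1, where cyclin D and cyclin E kinases release the E2F transcription factors, into S phase, where origins fire and DNA is copied. In G2 and mitosis the CDK1 kinase with B-type cyclins drives the separation of the chromosomes. Transcripts of replication genes are known to peak around the entry into S phase and those of mitotic genes in G2 and mitosis. The roles given below are those known from mammalian cells, chiefly human and mouse, with the earliest work on several of them in yeast.

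Values are log2 expression, each probe set set to 0 at its median over the 12 arrays, so that they tell how an array stood against the others but give no absolute level. For the same reason, whether the papillae held a marker of the epithelium at all could not be checked. Values of single arrays are given for cows 1 to 4 in that order, weekly means with the SD of 4 cows, and differences between weeks with their standard error from limma. Over all 24016 probe sets the lowest adjusted p was 0.0556 for week 1 against week 0, 0.171 for week 3 against week 0 and 0.230 for week 3 against week 1, so limma called none at an adjusted p under 0.05. With the cow as a block, 2 probe sets (0.00833%) were called for week 1 against week 0, and neither was a member. The number of arrays limits the precision of every value. Hybridization control transcripts, added to each sample, read 0.48 to 0.72 on 3 arrays (week 0 of cows 1 and 2, week 1 of cow 1) and -0.32 to 0.05 on the other 9.

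Replication genes and mitotic genes were highest in different weeks. Of the 16 replication genes, 15 had their highest weekly mean at week 1 and 1 at week 3, whereas 16 of the 19 mitotic genes had theirs at week 3. G1 regulators were mixed, with 7 of 10 highest at week 1. Among all named genes the share highest at week 1 was 48.1% and that highest at week 3 was 28.7%. Among the 4577 named genes whose SD over the arrays was above the median, these shares were 33.8% and 36.1%.

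**Figure D1:**
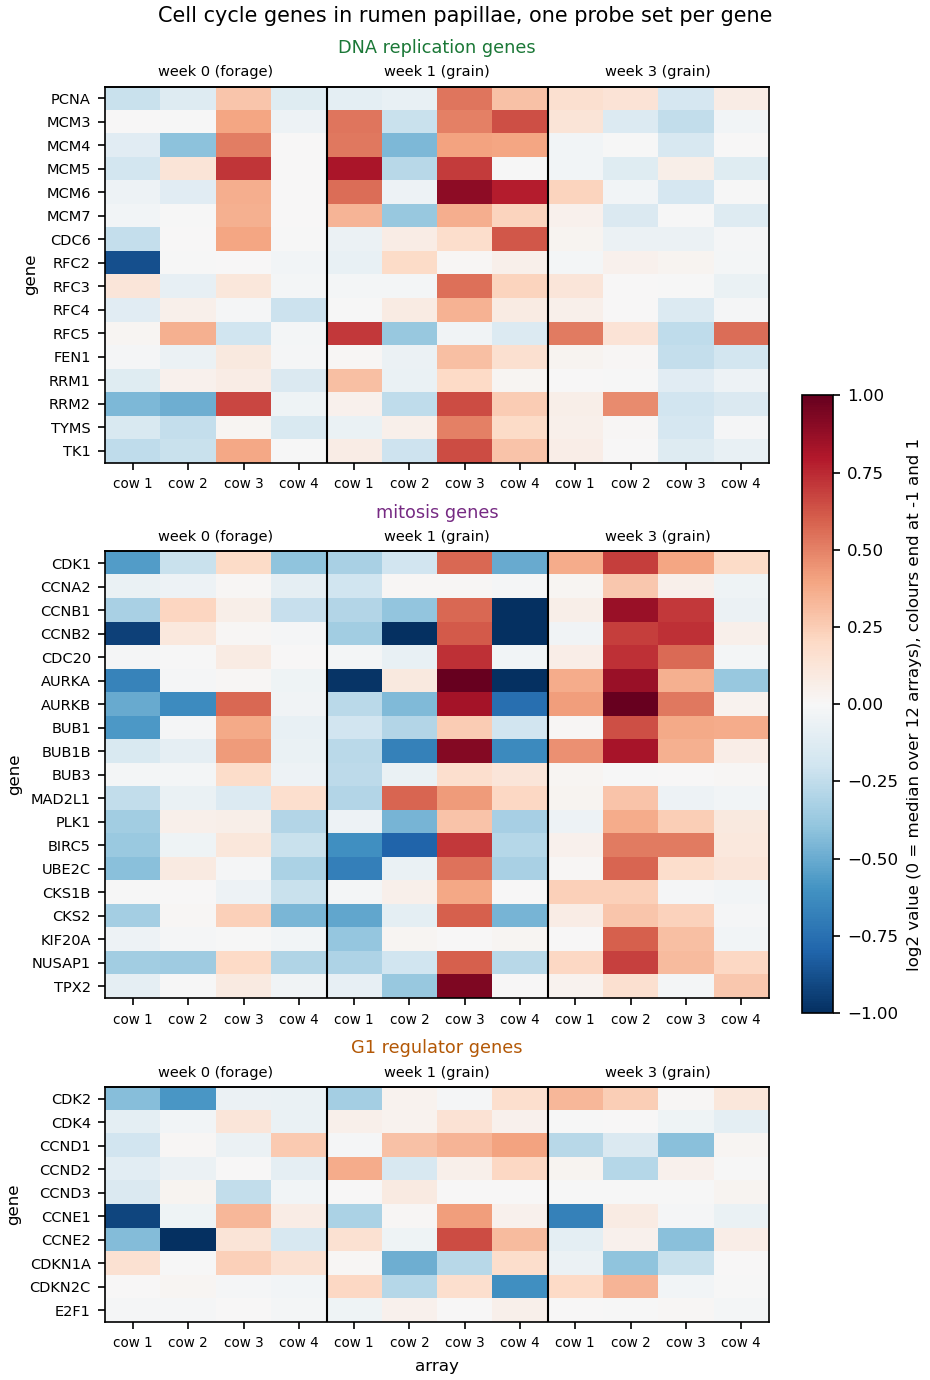
Heat maps of the log2 values of 45 genes (rows) on 12 arrays (columns, 4 cows in each of 3 weeks), with 0 at each gene's median over the arrays and colours ending at -1 and 1. Replication genes are mostly red or pale red in week 1 of cows 1, 3 and 4, and also in week 0 of cow 3 and week 3 of cow 1. Mitotic genes are mostly red or pale red throughout week 3 and in weeks 0 and 1 of cow 3.

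The median over the replication genes on each array was -0.12, -0.03, 0.32 and -0.02 at week 0. It was 0.06, -0.07, 0.45 and 0.22 at week 1, and 0.05, 0.00, -0.15 and -0.03 at week 3. Cow 3 thus stood above the other cows at weeks 0 and 1 and below them at week 3. The mitotic genes had medians of -0.34, -0.01, 0.08 and -0.07 at week 0, of -0.29, -0.19, 0.58 and -0.28 at week 1, and of 0.05, 0.60, 0.32 and 0.03 at week 3. In cows 1, 2 and 4 the mitotic median at week 3 lay above those of both other weeks, and in cow 3 the week 1 array was the highest. The medians of the G1 regulators stayed between -0.12 and 0.11 on all 12 arrays.

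**Figure D2:**
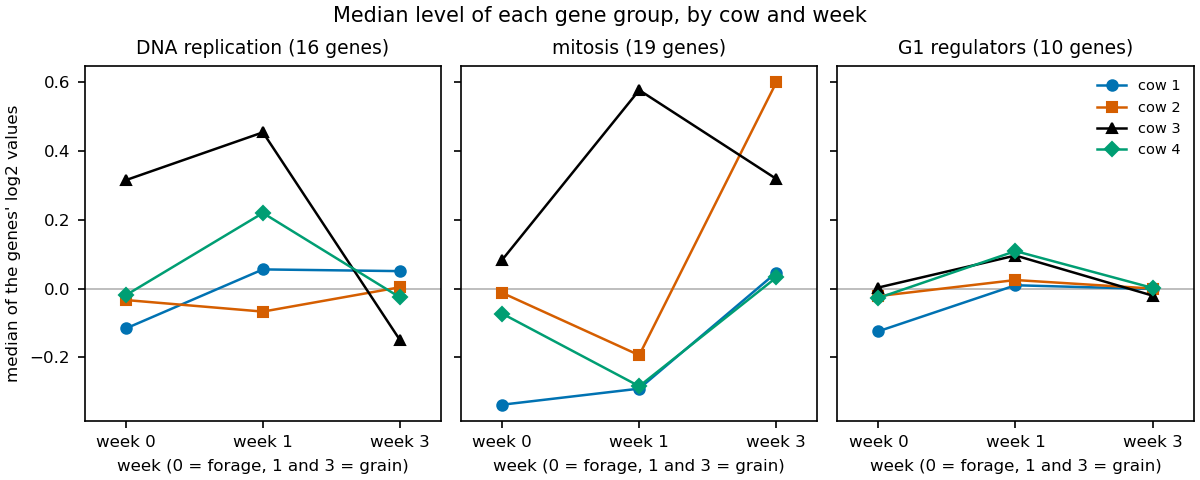
Median log2 value of the genes of each group (y) by week (x), 1 line and symbol per cow. For replication genes cow 3 is highest at weeks 0 and 1 (0.32 and 0.45), and for mitotic genes cow 3 stands apart at week 1 (0.58, with the other cows from -0.29 to -0.19) and cow 2 is highest at week 3 (0.60).

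Week 1 against week 0 asks how papillae after the first week of grain differed from those on forage. Of the 16 replication genes, 15 had a higher mean at week 1, with a median log2 difference of 0.21. Among mitotic genes 10 were higher and 9 lower, with a median of 0.00, and among G1 regulators 8 were higher and 2 lower, with a median of 0.15. Over all named genes 63.3% were higher and 36.7% lower with a median difference of 0.02, and of the genes with an SD above the median 50.9% were higher and 49.1% lower. Within cows 1 to 4 the median difference of the replication genes was 0.39, 0.03, 0.14 and 0.29 (SD over cows 0.16). It depended on single arrays, at 0.11 without week 1 of cow 3, 0.14 without week 0 of cow 1 and 0.33 without week 0 of cow 3. The 0.11 and 0.33 were the lowest and highest of all fits with 1 array or cow left out. Over the 9155 named genes, week 1 of cow 1 was the highest array for 1356 and the lowest for 2902. Leaving out the 3 arrays with high control readings gave 0.09, with 11 of the 16 genes higher. This set cows 2 to 4 at week 1 against cows 3 and 4 at week 0, so differences between cows enter the value.

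No member was called in this comparison by limma, as 0% of all probe sets were, and the lowest adjusted p of a member was 0.763 (0.412 with the cow as a block). At an unadjusted p under 0.05 stood 5 members, MCM6, RFC4, TYMS, CCND3 and CCNE2, all higher at week 1, against 3.76% of named genes higher and 2.85% lower (4.89% and 4.44% of those with an SD above the median). With the cow as a block 5 were higher and 1 lower, against 5.25% and 4.99%. In all 4 cows 13 members were higher, 7 of them replication genes, and none was lower, against 7.48% and 5.29% of named genes (9.46% and 8.32% of those with an SD above the median). The 2 weeks overlapped in every member, against 2.21% of named genes whose groups did not overlap and were higher and 0.907% that were lower.

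MCM6, a subunit of the MCM helicase that unwinds DNA at replication forks, was at 0.56, -0.05, 0.89 and 0.79 at week 1, against -0.05, -0.11, 0.36 and 0.01 at week 0. The difference was 0.50 ± 0.19 (SE), or 1.41-fold (limma adjusted p = 0.763), and it was positive in all cows, though only by 0.07 in cow 2. Its partners MCM3, MCM4, MCM5 and MCM7 differed by 0.28, 0.22, 0.15 and 0.05, none with the same sign in all cows. Cow 2 was lower at week 1 in each of the 4 genes, joined by cow 3 for MCM4 and by cows 3 and 4 for MCM5.

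TYMS, thymidylate synthase, which makes a DNA precursor, was at -0.07, 0.05, 0.50 and 0.19 at week 1, against -0.15, -0.24, 0.02 and -0.15 at week 0. The difference was 0.30 ± 0.11 (limma adjusted p = 0.763), with cow 3 the highest at both weeks, and without week 1 of cow 3 it was 0.19. TK1, the thymidine kinase of the salvage route, differed by 0.22 and was also higher in all cows. RRM1 and RRM2, the subunits of ribonucleotide reductase, were higher by 0.15 and 0.25 in the mean and higher in 3 of 4 cows.

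RFC4, a subunit of the clamp loader that places PCNA on DNA, averaged 0.13 ± 0.15 at week 1 and -0.07 ± 0.11 at week 0 (SD, n = 4 cows each). The difference of 0.20 ± 0.08 was positive in all cows and was 0.12 without week 1 of cow 3. PCNA itself, the sliding clamp of the replicative polymerases, was at -0.10, -0.07, 0.54 and 0.30 at week 1, against -0.23, -0.13, 0.28 and -0.12 at week 0. All cows were higher at week 1, by 0.06 to 0.42, but cows 1 and 2 at week 1 remained below cow 3 at week 0, and the difference was 0.22 ± 0.16 (limma adjusted p = 0.763), or 0.092 without week 1 of cow 3. RFC2 was higher in all cows as well, its mean difference of 0.27 resting on the value of -0.88 in cow 1 at week 0. RFC5 was the 1 replication gene that was not higher, with a difference of -0.00 and cows from -0.74 to 0.69.

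Among G1 regulators, CCNE2, a cyclin E that activates CDK2 at the entry into S phase, had the largest difference. It was at 0.15, -0.04, 0.65 and 0.31 at week 1, against -0.44, -1.02, 0.13 and -0.16 at week 0. The difference was 0.64 ± 0.23, or 1.56-fold (limma adjusted p = 0.763), and each cow was higher by 0.48 to 0.98. Cow 2 set the low end at both weeks, and without its week 0 array the difference was 0.43. CCNE1, the other E-type cyclin, differed by 0.18 ± 0.27 and was higher in 3 of 4 cows.

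The D-type cyclins pair with CDK4 to start the exit from G1. CCND1 was at -0.01, 0.30, 0.34 and 0.40 at week 1, against -0.19, 0.01, -0.06 and 0.26 at week 0, a difference of 0.25 ± 0.12 with the same sign in every cow. CCND3 differed by 0.13 ± 0.05 and CDK4 by 0.09 ± 0.05, small steps of genes that varied little, with CCND3 at 0.076 without week 0 of cow 3 and CDK4 at 0.13 without it. CDK2 averaged -0.04 ± 0.22 at week 1 and -0.28 ± 0.26 at week 0, higher in all cows, most in cow 2, by 0.62, and the difference of 0.25 was 0.12 without that cow. CDKN1A, the p21 inhibitor of cyclin-dependent kinases, had a lower mean, with 0.01, -0.49, -0.28 and 0.18 at week 1, against 0.15, -0.00, 0.24 and 0.15 at week 0. Cows 1 to 3 were lower and cow 4 was higher by 0.02, and the difference was -0.28 ± 0.14 (limma adjusted p = 0.763), or -0.17 without week 1 of cow 2.

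Mitotic genes showed no common direction at week 1. CDK1, the mitotic kinase, was at -0.33, -0.19, 0.58 and -0.51 at week 1, against -0.56, -0.22, 0.19 and -0.40 at week 0, and CCNB1, its cyclin B1 partner, at -0.29, -0.39, 0.57 and -1.23, against -0.32, 0.22, 0.06 and -0.23. The differences were 0.13 ± 0.23 and -0.27 ± 0.34, each within the spread between cows. Cow 3 alone had a clearly positive median difference over the mitotic genes, 0.44, where the others had -0.07 to -0.01. In its week 1 array all 19 mitotic genes were above their own medians, with AURKA, a kinase of the spindle poles, at 1.31.

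**Figure D3:**
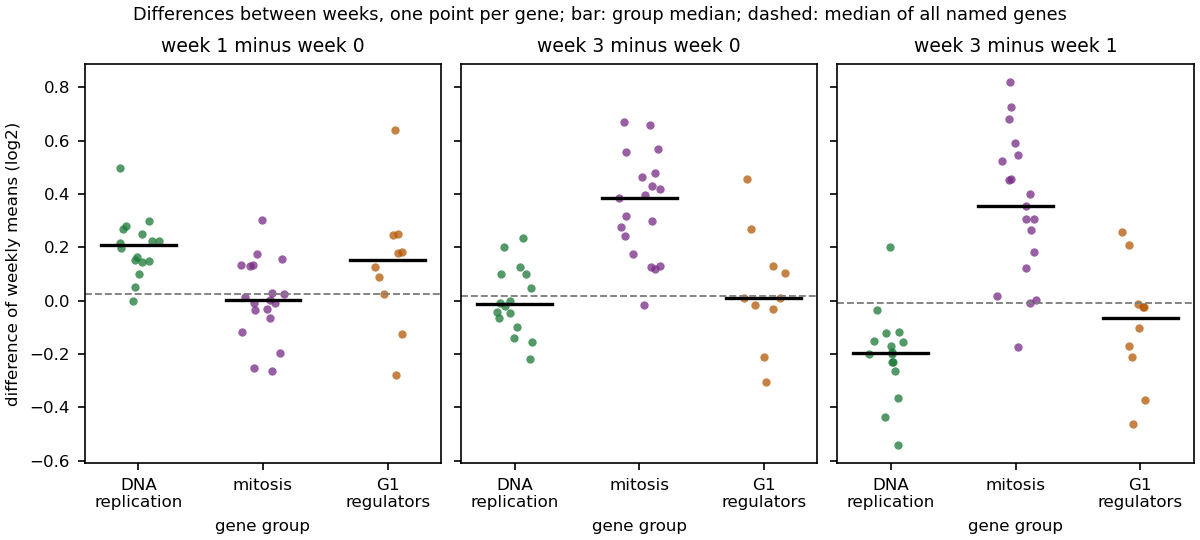
Differences of weekly means on the log2 scale (y) for each gene, by group (x) and comparison (panel), with the group median as a bar and the median of all named genes dashed. Replication genes lie above 0 at week 1 against week 0 (15 of 16) and below 0 at week 3 against week 1 (15 of 16), and mitotic genes lie above 0 in both comparisons of week 3 (18 and 17 of 19).

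At week 3 against week 0, which asks the same after 3 weeks of grain, the mitotic genes stood out. Of these, 18 of 19 had a higher mean at week 3 than on forage and the median difference was 0.39, and within cows 1 to 4 the median was 0.42, 0.59, 0.12 and 0.18 (SD over cows 0.22). Replication genes had no common direction, with 6 higher and 10 lower and a median of -0.01, and G1 regulators had 6 higher and 4 lower with a median of 0.01. Over all named genes 64.5% were higher and 35.5% lower, at a median of 0.02, and of those with an SD above the median 53.7% were higher and 46.3% lower. Leaving out the 3 arrays with high control readings gave a mitotic median of 0.25, with 18 of 19 genes higher. This set all cows at week 3 against cows 3 and 4 at week 0, so differences between cows enter the value.

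Limma called no member here, as it called 0% of all probe sets, and the lowest adjusted p of a member was 0.901 (0.452 with the cow as a block). CDK1, NUSAP1 and CDK2 had an unadjusted p under 0.05, all higher at week 3, against 3.13% of named genes higher and 1.89% lower (4.96% and 2.95% of those with an SD above the median). With the cow as a block 5 members were higher and 2 lower, against 5.07% and 2.95%. The same 3 genes were the members whose week 3 values did not overlap those of week 0, against 2.95% of named genes higher and 1.1% lower. In all 4 cows 11 members were higher, 9 of them mitotic, and CDKN1A and CCND1 were lower. That compares with 28.1% and 6.34% of named genes, and with 17.9% and 9.85% of those with an SD above the median.

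CDK1 was at 0.37, 0.69, 0.39 and 0.19 at week 3, against -0.56, -0.22, 0.19 and -0.40 at week 0. The lowest cow at week 3 (0.195) lay only just above the highest at week 0 (0.194). The difference was 0.66 ± 0.23, or 1.58-fold (unadjusted p = 0.0175, limma adjusted p = 0.901), and with the cow as a block the unadjusted p was 0.00402 (adjusted 0.452). Its cyclins CCNB1 and CCNB2 differed by 0.46 ± 0.34 and 0.57 ± 0.38, and CCNA2, the A-type cyclin of S phase and G2, by 0.13 ± 0.07. All 3 were higher at week 3 in every cow. Without week 3 of cow 2 the difference was 0.31 for CCNB1 and 0.061 for CCNA2.

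NUSAP1, which binds and bundles spindle microtubules, was at 0.21, 0.69, 0.32 and 0.21 at week 3, against -0.35, -0.35, 0.20 and -0.30 at week 0. Its difference was 0.56 ± 0.21, or 1.47-fold (limma adjusted p = 0.901). As for CDK1, the forage value of cow 3 nearly reached the lowest values of week 3, and those of the other 3 cows lay well below.

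PLK1, a kinase that acts from the entry into mitosis to cytokinesis, was at -0.05, 0.37, 0.25 and 0.09 at week 3, against -0.34, 0.05, 0.06 and -0.29 at week 0, so that the groups overlapped although each cow was higher by 0.19 to 0.38. UBE2C, the ubiquitin-conjugating enzyme of the anaphase-promoting complex, was at 0.01, 0.58, 0.18 and 0.12 at week 3, against -0.42, 0.09, -0.01 and -0.32 at week 0. BIRC5, or survivin, of the chromosomal passenger complex, was at 0.05, 0.52, 0.52 and 0.11 at week 3, against -0.37, -0.05, 0.11 and -0.22 at week 0. In these 3 genes the cows were spread widely but all 4 differences had the same sign, with mean differences of 0.30 ± 0.17, 0.39 ± 0.24 and 0.43 ± 0.28. CKS1B, a small binding partner of cyclin-dependent kinases, differed by 0.18 ± 0.10.

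Other mitotic members, named here after their values were seen, had differences that ran from large to near 0. AURKB, the kinase of the chromosomal passenger complex, differed by 0.67 ± 0.38, with cows from -0.05 to 1.75, and AURKA by 0.48 ± 0.48. Of the spindle checkpoint genes, BUB1 differed by 0.42 ± 0.20, BUB1B by 0.40 ± 0.32 and MAD2L1 by 0.13 ± 0.17. BUB3, at -0.02 ± 0.09, was the 1 mitotic gene with a lower mean at week 3.

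CDK2 stood apart from the other G1 regulators. It was at 0.33, 0.25, 0.01 and 0.11 at week 3, against -0.42, -0.58, -0.06 and -0.07 at week 0, without overlap. The difference was 0.46 ± 0.14, or 1.37-fold (unadjusted p = 0.00842, limma adjusted p = 0.901), and it was largest in cow 2, at 0.83, and smallest in cow 3, at 0.07. CDKN1A was at -0.06, -0.41, -0.22 and 0.00 at week 3, against 0.15, -0.00, 0.24 and 0.15 at week 0, lower in every cow, with a difference of -0.30 ± 0.14 (limma adjusted p = 0.901). CCND1 was at -0.28, -0.14, -0.42 and 0.02 at week 3, against -0.19, 0.01, -0.06 and 0.26 at week 0, also lower in every cow, with a mean difference of -0.21 ± 0.12 that was -0.13 without week 0 of cow 4 and -0.14 without week 3 of cow 3. PCNA had a difference of 0.10 ± 0.16, with 3 cows higher and cow 3 lower by 0.44, and ran from 0.0036 to 0.28 with single arrays or cows left out.

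The comparison of week 3 with week 1 asks how the later and the earlier grain week differed. Of the replication genes 15 of 16 were lower at week 3, with a median of -0.20. In contrast, 17 of 19 mitotic genes were higher (median 0.36). G1 regulators had 8 of 10 lower and a median of -0.06. Of all named genes 59.2% were lower and 40.8% higher, with a median of -0.01, and of those with an SD above the median 47.2% were lower and 52.8% higher. Both comparisons with week 1 share its 4 arrays, and both with week 0 share those of the forage diet, so the turn of the replication genes is not seen in independent samples.

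The cows differed here. The median difference over the replication genes was 0.01, 0.07, -0.56 and -0.31 within cows 1 to 4, below 0 in cows 3 and 4. In cow 1 the measured MCM genes were also all lower at week 3, MCM5 going from 0.82 to -0.03. The mean over the replication genes went from 0.22 at week 1 to 0.09 at week 3 in cow 1, and from -0.13 to 0.02 in cow 2. Without cow 3 the median difference of the replication genes was -0.07, and it was -0.10 without that cow's week 1 array alone. The mitotic medians were 0.35, 0.80, -0.19 and 0.45, higher in every cow but cow 3. The mitotic median was 0.56 without cow 3 and 0.57 without that cow's week 1 array. Leaving out the 3 arrays with high control readings gave 0.21, with 15 of 19 genes higher, and leaving out week 1 of cow 1 alone also gave 0.21. Both fits set all cows at week 3 against cows 2 to 4 at week 1.

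No member was called by limma, as 0% of all probe sets were, and the lowest adjusted p of a member was 0.670 (0.159 with the cow as a block). At an unadjusted p under 0.05, CDK1, BUB1 and KIF20A were higher, against 3.68% of named genes, and MCM3, MCM6, FEN1 and CCND1 were lower, against 3.16% (6.01% and 4.89% of those with an SD above the median). With the cow as a block 7 were higher and 4 lower, against 6.39% and 4.21%. CCNB1, CCNB2 and BUB1 were higher and CDK4, CCND1 and CCND2 were lower in all 4 cows, against 7.35% and 5.68% of named genes (11.3% and 8.06% of those with an SD above the median). CDK4 was the member whose groups did not overlap, lower at week 3, against 1.69% of named genes lower and 1.55% higher.

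CCND1 had the smallest p of any member in any comparison. Its values of -0.28, -0.14, -0.42 and 0.02 at week 3 stood against -0.01, 0.30, 0.34 and 0.40 at week 1. Each cow was lower by 0.27 to 0.76, although cow 4 at week 3 was still above cow 1 at week 1. The difference was -0.46 ± 0.12, 1.38-fold lower (unadjusted p = 0.00381, limma adjusted p = 0.670), and with the cow as a block the unadjusted p was 0.000273 (adjusted 0.159). Its partner kinase CDK4 was lower by 0.10 ± 0.05, and CCND2 had a difference of -0.17 ± 0.11, which was -0.086 without week 1 of cow 1, -0.093 without week 3 of cow 2 and -0.26 without week 1 of cow 2.

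The B-type cyclins had the largest differences of all members. CCNB2 was at -0.03, 0.69, 0.73 and 0.05 at week 3, against -0.34, -1.10, 0.61 and -0.999 at week 1, a difference of 0.82 ± 0.38, or 1.76-fold (limma adjusted p = 0.999). CCNB1 was at 0.06, 0.86, 0.71 and -0.06 at week 3, against -0.29, -0.39, 0.57 and -1.23 at week 1, a difference of 0.73 ± 0.34. Every cow was higher for both genes, cow 3 by 0.12 for CCNB2 and 0.13 for CCNB1, and cow 2, with the largest differences, by 1.80 and 1.25. Without cow 2 the CCNB2 difference was 0.49, and without week 1 of cow 4 that of CCNB1 was 0.43. BUB1, a kinase of the spindle checkpoint, was at 0.01, 0.64, 0.38 and 0.37 at week 3, against -0.19, -0.29, 0.26 and -0.19 at week 1, a difference of 0.45 ± 0.20 that was 0.29 without cow 2. CDK1 differed by 0.52 ± 0.23, higher in 3 cows and lower in cow 3.

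MCM6 was at 0.22, -0.03, -0.17 and -0.01 at week 3, against 0.56, -0.05, 0.89 and 0.79 at week 1, a difference of -0.54 ± 0.19 (limma adjusted p = 0.864). Cow 3 was lower by 1.06, cows 1 and 4 were lower too, and cow 2 was higher by 0.02. MCM3, at -0.44 ± 0.18, and FEN1, which trims the flaps of lagging-strand fragments, at -0.20 ± 0.09, came next by p. PCNA, at -0.12 ± 0.16, was lower in cows 3 and 4 and higher in cows 1 and 2, and CDKN1A, at -0.02 ± 0.14, was lower in 2 cows and higher in 2.

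**Figure D4:**
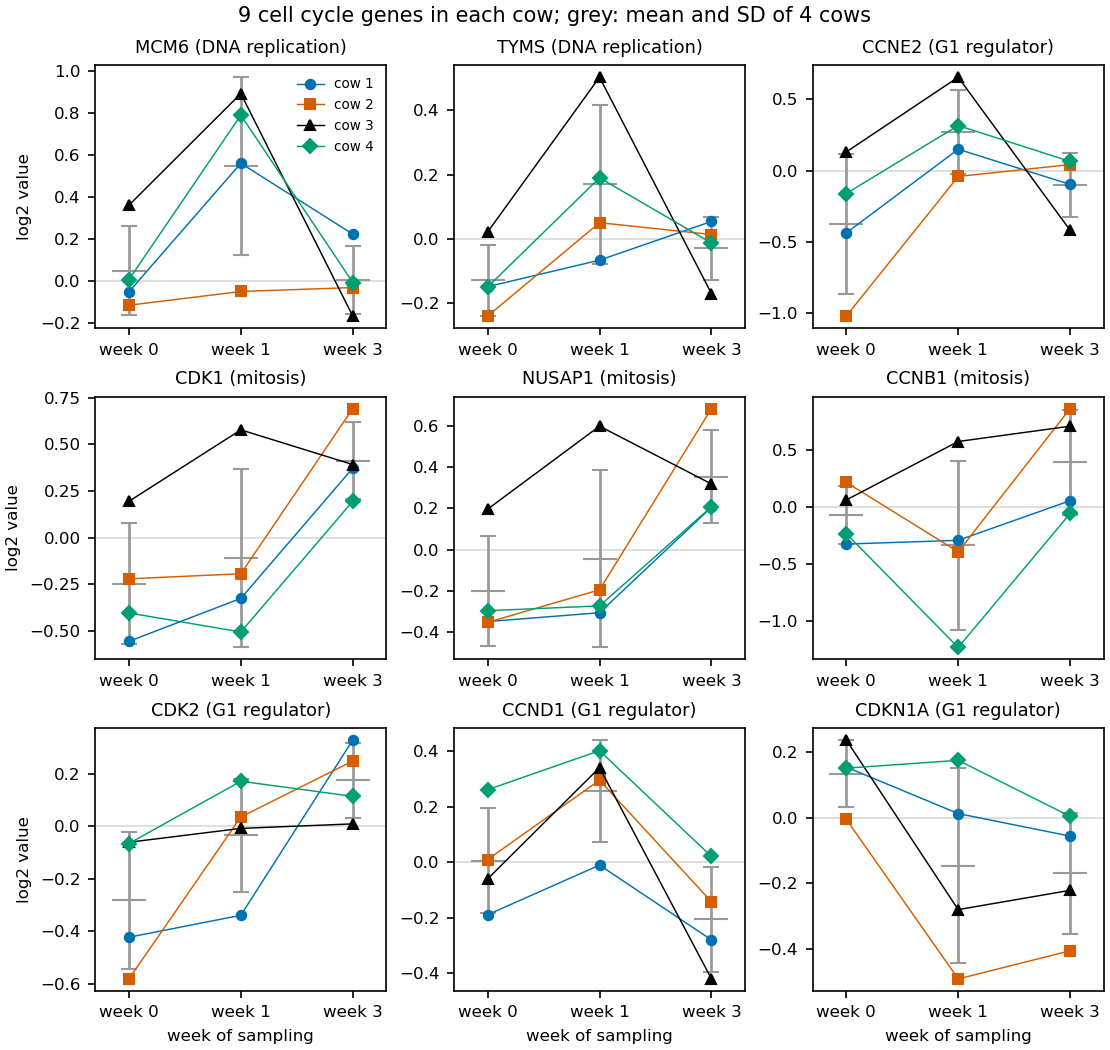
Log2 values (y) of 9 genes in each of 4 cows (lines and symbols) by week (x), with the mean and SD of the cows in grey and a separate y scale in each panel. MCM6, TYMS, CCNE2 and CCND1 have their highest mean at week 1 (MCM6 0.55), and CDK1, NUSAP1, CCNB1 and CDK2 have theirs at week 3 (CDK1 0.41).

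Tested over the 3 weeks together, no member was called (limma F test, lowest adjusted p 0.811, with 0% of all probe sets called). At an unadjusted p under 0.05 stood 4 of the 45, MCM6, CDK1, CDK2 and CCND1, or 8.89%, against 6.9% of named genes and 10.8% of those with an SD above the median. When arrays were weighted by their quality, 10 members passed at week 1 against week 0 and 7 over the 3 weeks, against 30.6% and 19.2% of named genes, with a weight of 0.0618 for week 1 of cow 1.

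The balance of replication against mitotic genes was also followed array by array, as the replication median minus the mitotic median. This difference was 0.22, -0.02, 0.23 and 0.05 at week 0, 0.35, 0.13, -0.12 and 0.50 at week 1, and 0.00, -0.60, -0.47 and -0.06 at week 3. Within every cow the week 3 value was the lowest of the 3 weeks. Cows 1, 2 and 4 had their highest value at week 1, and cow 3 at week 0.

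Part of the variation of these genes lay between weeks and part between cows. The median share of a gene's sum of squares that lay between weeks was 19.8% for replication genes, 28.6% for mitotic genes and 36.8% for G1 regulators, against 13.4% for all named genes. The median share between cows was 28.3%, 34.8% and 31.0%, against 28.6%. With 12 arrays, shares of this kind are well above 0 even in values without a real difference between weeks or cows. A share alone therefore shows no effect of week or cow, and the shares were not tested. They were not set beside those of genes with an SD above the median. CCND1 had 57.6% between weeks, whereas CCNE1 had 80.8% and CKS2 64.5% between cows (these 3 were picked after their values were seen). For 8 members, E2F1, CDK4, CCND3, CCNA2, BUB3, RRM1, RFC4 and FEN1, the SD over the 12 arrays was under the median of named genes (0.159). E2F1, the transcription factor that switches on many replication genes, had the smallest, 0.027, and its 12 values ran from -0.05 to 0.05.

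There were 12 members with 2 probe sets each. The second agreed in sign with the one used for 7 of 12 at week 1 against week 0, for 7 at week 3 against week 0, and for 6 at week 3 against week 1. AURKB, BUB1, BUB3, KIF20A and RFC5 disagreed in the first of these, BUB3, CCNE1, CDC6, MCM3 and MCM6 in the second, and AURKB, BUB1, BUB3, CCNE1, RFC5 and TPX2 in the third. For MCM6 the 2 probe sets had the same sign in both comparisons with week 1, where its differences were largest. The same sign did not mean a like size. At week 1 against week 0 the second probe set gave 0.03 for TYMS (used: 0.30) and 0.03 for MCM3 (used: 0.28), but 0.43 for MCM6 (used: 0.50). At week 3 against week 0 it gave 0.04 for AURKB (used: 0.67) and 0.04 for BUB1 (used: 0.42), but 0.87 for AURKA (used: 0.48). The probe set used was always the one of larger SD.

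Further genes of the same processes, not members, were read from 3 lists, and none of them was called in any comparison. Of 34 replication genes measured out of 40 listed, 26 had a higher mean at week 1 than on forage (median 0.10), and 25 a lower mean at week 3 than at week 1 (median -0.05). Among named genes these shares were 63.3% and 59.2% (50.9% and 47.2% of those with an SD above the median). CHAF1B, a histone chaperone subunit at the replication fork, differed by 0.41 ± 0.15 at week 1 against week 0, RPA3, of the single-strand binding protein, by 0.45 ± 0.18, and CDC7, the kinase that fires origins, by 0.14 ± 0.04. DBF4, the activator of CDC7, had the smallest p of this list at week 3 against week 0 among genes of 1 sign in all cows, at 0.58 ± 0.22. PRIM1 at 0.16 ± 0.10 and ORC1 at 0.15 ± 0.11 came next, that of ORC1 resting on the value of -0.56 in cow 1 at week 0. ORC5, RPA1 and POLD3 were lower in every cow at week 3 against week 1, with differences of -0.26 ± 0.10, -0.15 ± 0.08 and -0.25 ± 0.17. For POLD3 cow 1 was lower by 0.62, from 0.82 at week 1, and cow 2 by only 0.02.

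Of 32 further mitotic genes measured out of 49, 30 had a higher mean at week 3 than on forage (median 0.29), and 20 of them were higher in every cow. Among named genes 64.5% had a higher mean and 28.1% were higher in every cow (53.7% and 17.9% of those with an SD above the median). In 8 of the 32 the groups did not overlap, against 2.95% of named genes and 179 of the 4577 with an SD above the median. Some gaps were narrow. The lowest week 3 values of CCNF and CDC25C were -0.0001 and 0.0031, against highest week 0 values of -0.0023 and -0.0081. At an unadjusted p under 0.05 in limma 11 were higher, against 3.13% of named genes (4.96% of those with an SD above the median). ESPL1, the separase that cuts the link between sister chromatids, was at 0.10, 0.51, 0.49 and 0.24 at week 3, against -0.12, -0.15, -0.11 and -0.17 at week 0, a difference of 0.47 ± 0.11 (limma adjusted p = 0.694). KIF23, a kinesin of the central spindle, was at 0.35, 0.60, 0.25 and 0.33 at week 3, against -0.02, -0.22, 0.02 and -0.28 at week 0, a difference of 0.51 ± 0.12 (limma adjusted p = 0.763). In both genes all cows at week 3 lay above all cows at week 0, cow 3 included. HMGB2, a chromatin protein, differed by 0.35 ± 0.12. Against week 1, 27 of the 32 were higher at week 3 (40.8% of named genes), led by KIF23 at 0.48 ± 0.12, ESPL1 at 0.29 ± 0.11 and ASPM, a spindle pole protein, at 0.47 ± 0.18. At week 1 against week 0 the median was only 0.04, although 26 of the 32 were higher (63.3% of named genes). KIF4A, CENPN and MELK, which were higher in every cow, differed by 0.51, 0.35 and 0.32.

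The 21 further genes of G1 and checkpoint control, out of 38, had medians of 0.04 at week 1 against week 0, of 0.01 at week 3 against week 0 and of -0.06 at week 3 against week 1. RB1, the retinoblastoma protein that holds E2F factors in check, was at 0.31, 0.69, 0.51 and 0.32 at week 1, against -0.06, -0.24, -0.14 and 0.01 at week 0, with no overlap. The difference was 0.57 ± 0.12 (limma adjusted p = 0.686). At week 3 it was at -0.01, -0.26, -0.13 and 0.29, and the difference from week 1 was -0.49 ± 0.12. WEE1, the kinase that holds CDK1 inactive, was higher in every cow at weeks 1 and 3 than at week 0, by 0.30 ± 0.09 and 0.29 ± 0.09 in the mean. E2F6 was higher by 0.18 ± 0.11 at week 1 against week 0. That mean rested on cow 1, as its week 1 values were 0.60, 0.03, 0.00 and 0.05. CCNG1, a cyclin induced by p53, differed by 0.25 ± 0.08 at week 3 against week 0 and by 0.35 ± 0.08 against week 1. At week 3 against week 0, E2F5 was higher by 0.12 ± 0.12 in the mean. E2F4, CDKN2B and FBXW7 were lower by 0.18 ± 0.09, 0.59 ± 0.38 and 0.34 ± 0.34. MNAT1 was lower by 0.15 ± 0.12 at week 3 against week 1. For E2F5 and FBXW7 the standard error was about as large as the difference.

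Markers of the cell types that papillae can hold were read beside these groups, as the mean over each list on each array. Of 6 basal epithelial markers measured out of 12, all 6 were lower at week 1 than at week 0 (median -0.32) and 5 were lower at week 3 than at week 0 (median -0.28). Their list mean ran from 0.09 to 0.41 at week 0, from -0.34 to 0.28 at week 1 and from -0.31 to 0.05 at week 3. Of 10 suprabasal markers out of 18, 8 were lower at week 1 than at week 0 (median -0.25) and 6 at week 3 than at week 0 (median -0.02). Among named genes 36.7% were lower at week 1 and 35.5% at week 3.

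Of 16 leukocyte markers out of 19, 13 were higher at week 3 than at week 0 (median 0.09), with list means from -0.48 to 0.31 at week 0, from -0.23 to 0.16 at week 1 and from -0.15 to 0.47 at week 3. Of 10 fibroblast markers, 9 were higher at week 3 than at week 0 (median 0.37), and their list mean ran from -0.42 to 0.08 at week 0, from -0.38 to 0.27 at week 1 and from 0.11 to 0.31 at week 3. Of 11 markers of endothelium and smooth muscle, 5 were higher and 6 lower at week 3 than at week 0 (median -0.04). Among named genes 64.5% were higher at week 3 than at week 0. The part of these lists in the values of the cell cycle genes was not tested.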

How the data were processed

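RNA of rumen papillae was labelled from 10 µg of total RNA and hybridized to bovine Affymetrix arrays, 1 per cow and week, per the labels' protocols. The authors' deposited values were processed with GCRMA, per the submitters' processing notes, and are log2 values. That they are log2 and that each probe set was centred on its median over the 12 arrays was read from the values: every row median was 0, and the widest range of 11.2 would be a 74399-fold range on a natural log scale. The genome build was not given in the sources used here.

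Of 24016 probe sets left without 112 AFFX controls, 13292 named 1 gene, 86 several and 10638 none in the platform annotation. limma 3.58.1 in R 4.3.3 (lmFit, eBayes, two-sided) was fitted over all 24016 with 1 mean per week, as the study compares weekly means, and p-values were adjusted by the Benjamini-Hochberg method over all of them. The code was tested on simulated data. The cow was a block in an alternative fit, as cow numbers in the labels name the same animals: deviations from weekly means correlated at 0.321 to 0.692 within cows (12 pairs) and at -0.443 to 0.0627 between cows (36 pairs), over the 14409 probe sets of larger SD. Other alternatives were quantile normalization, centring of arrays, array weights, the mean over probe sets, an SD filter and leaving out arrays or cows. Each week holds the same 4 cows, which are separate animals within a week, and no 2 arrays were identical (highest correlation 0.640).

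Members, lists and tests were chosen with earlier results of these data known, so lists are described by counts and medians and not tested. Genes named are, per comparison, up to 8 members in each direction of the same sign in all 4 cows by smallest p, PCNA, CDK1, CCNB1, CCND1 and CDKN1A throughout, and up to 3 genes per pathway list and direction. Other genes named beside these were picked after their values were seen.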

Additional observations from a re-analysis of the deposited data

Results flagged for a closer look

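Of 72 sets of 4 arrays (the values of 1 gene or group median in 1 week), 11 held an array that lay far from the other 3, with a gap to the nearest over Dixon's 95% critical share of the whole range. Chance gives about 1 in 20 such sets, or 3.6. The sets share arrays and are not independent, and the genes were named partly by their values in these data, so 3.6 is only a rough guide. Of the 11, 5 were arrays of cow 3 that were the highest of their week, namely the mitotic median at week 1 (0.58, others -0.29 to -0.19), NUSAP1 at week 1 (0.60) and at week 0 (0.20), CKS1B at week 1 (0.38) and CDK4 at week 1 (0.14). Cow 3 was also the one that stood out, as the lowest, in the G1 median at week 3 (-0.021, the others from -0.0013 to 0.0018). CCNB2 at week 0 was far lower in cow 1 (-0.93) than in the others (-0.01 to 0.10), and CCNA2 at week 1 was lowest in cow 1 (-0.20). CCND2 at week 3 was lowest in cow 2 (-0.29). CCND3 stood out by small amounts, in cow 2 at week 1 (0.093) and in cow 4 at week 3 (0.025).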

How the results depend on the processing

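Under 7 other settings and 16 fits that left out 1 cow or 1 array, 50 results gave 1148 values. Of these, 25 had the opposite sign to the reported value, 10 of single genes and 15 of group medians near 0, 6 values of single genes crossed the threshold, and 2 counts of called members were no longer 0. With the cow as a replicate block, 0 members were called in each comparison of 2 weeks and over the 3 weeks, as without it (each cow has an array in every week, so the block leaves the differences as they are). With array weights 10 members were called at week 1 against week 0 and 7 over the 3 weeks, but so were 30.6% and 19.2% of named genes, and week 1 of cow 1 received the lowest weight, 0.0618 (highest 3.63). Among the 10 were CCNE2 (0.67, limma adjusted p = 0.0402), TYMS (0.33), MCM6 (0.59), RFC4 (0.20), CCND1 (0.41) and CDK2 (0.43). The others were CDC6 (0.47), MAD2L1 (0.43), E2F1 (only 0.052) and CDKN2C, which was lower (-0.41). Leaving out the 3 arrays with high control readings put the G1 median at week 1 against week 0 at 0.063, PCNA at week 3 against week 0 at -0.028 and CDKN1A at week 3 against week 1 at 0.029. That fit had only cows 3 and 4 at week 0 and lacked cow 1 at week 1, so differences between cows enter these values. With 1 array or cow left out, the G1 median ran from 0.074 to 0.17 at week 1 against week 0 and from -0.13 to -0.052 at week 3 against week 1. Signs turned in such fits for CDK1 (-0.095 to 0.28) and CCNB1 (-0.57 to 0.033) at week 1 against week 0, and for PCNA (-0.24 to 0.080) and CDKN1A (-0.14 to 0.083) at week 3 against week 1. The medians near 0 were the mitotic one at week 1 and those of replication and G1 genes at week 3, each against week 0. The cause of these turns was not tested. The filter on SD left 14409 probe sets and dropped CDK4 and E2F1, so these have no value there. Centred values give no signal over background, so dim probe sets could not be told from bright ones.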
